A study of Homo sapiens with 519 samples.

Results

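Isopomiferin, a prenylated isoflavone, was given for 2 exposure times and at 2 concentrations to SK-N-BE(2) cells. SK-N-BE(2) is an established cell line from a human neuroblastoma and carries extra copies of the oncogene MYCN. The 12 isopomiferin libraries of the study's second experiment were taken by their labels: 3 libraries at 10 mM and 3 at 3.3 mM after 6 h, and 3 at each concentration after 24 h. Each set was compared with the 6 libraries labelled Control of the same time. The labels' protocol describes the control wells as receiving the solvent DMSO alone, and no other treatment or genetic change is named for any of these groups. They are 12 of the 519 libraries of the series, which holds 4 experiments, and the second experiment tested 15 compounds beside the control wells. The experiment used PLATE-seq, a 3′-end method in which the wells of a plate are barcoded and sequenced as a pool. Concentrations are given as the labels print them, in mM, although the study's design text gives its screening concentrations in µM. The comparisons ask which genes changed early and stayed changed, which returned towards control, which changed only by the later time, and what the higher concentration added at each time.

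Cells under stress slow protein synthesis and translate the transcription factor ATF4, which switches on genes for amino acid import, amino acid synthesis and tRNA charging; this is the integrated stress response. Unfolded protein in the endoplasmic reticulum (ER) also raises ER chaperones through ATF6 and XBP1, the unfolded protein response. NRF2 switches on detoxification and iron-storage genes when its repressor KEAP1 is modified, heat shock factor 1 raises cytosolic chaperones, and NRF1 (NFE2L1) raises proteasome subunit genes when proteasome capacity falls short. In MYCN-amplified neuroblastoma an adrenergic set of transcription factors that includes PHOX2A, HAND1 and GATA3 maintains the identity of the cells beside MYCN.

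Total counts ran from 1031590 to 1756008 in the control libraries at 6 h, from 1242586 to 1666620 in the isopomiferin libraries at 6 h, from 1541946 to 1901416 in the controls at 24 h and from 608491 to 1631460 in the isopomiferin libraries at 24 h. Replicate 3 of 3.3 mM at 24 h held 608491 counts, the lowest of the second experiment, and the total counts of calls that rest on it are given with and without it. Without it the gene counts at 3.3 mM and 24 h were 8 in place of 9 for ER folding, 19 in place of 21 for proteasome subunits and 1 in place of 3 for adrenergic genes, and those of ATF4 and NRF2 targets stayed at 10 and 9. All 15 neuroblastoma marker genes looked at were detected in each control group, and their summed level was 5786 to 7773 CPM, a library's counts scaled to a common total by trimmed means of M values. Of the 15, 12 reached 30 CPM in the controls at 6 h and 11 at 24 h, and STMN2 alone had control means of 3708 and 3824 CPM. At 10 mM and 24 h the sum was 3226 to 3767 CPM. Of 19 marker genes of other cell types, 8 to 12 were at 0 in each of the 6 groups, and only PDGFRB and ACTA2 reached 30 CPM. Nothing in the labels ties the replicates to separate cultures, so the p-values measure the spread between wells, which may be technical.

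The response grew between the times and with the concentration. Genes were called where edgeR's quasi-likelihood test, adjusted by Benjamini-Hochberg over all genes tested in a comparison, gave a p under 0.05, and such a gene is said to have passed. At 6 h, 10 mM raised 124 of 11460 genes tested (1.08%) and lowered 25 (0.218%), and 3.3 mM raised 56 (0.489%) and lowered 4 (0.0349%). At 24 h, 10 mM raised 1143 of 11539 genes (9.91%) and lowered 969 (8.4%), and 3.3 mM raised 264 (2.29%) and lowered 93 (0.806%). The median log2 change over all genes tested was between −0.05 and −0.01 in these 4 comparisons. The count at 10 mM and 6 h fell from 149 to 90 when replicate 3 was left out and to 97 without replicate 2. At 3.3 mM and 24 h it fell from 357 to 184 without replicate 2 and to 263 without the shallow replicate 3.

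Genes were sorted by the tests at 10 mM at both times and by a test of the difference between times, in which the control libraries of each time enter. A gene was called persistent when it passed at both times in the same direction. It was called late when it passed only at 24 h and its change moved further from 0 between the times, and fading when it passed only at 6 h and moved back. Of the 11167 genes tested at both times, 102 were persistently higher (0.913%) and 16 persistently lower (0.143%). The test between times, run on 12121 genes, was passed at 10 mM by 297 whose change was higher at 24 h (2.45%) and 263 whose change was lower (2.17%), and at 3.3 mM by 31 (0.256%) and 10 (0.0825%). The 41 at 3.3 mM were 22 without replicate 3 at 6 h and 27, 24 and 26 without replicate 1, 2 or 3 at 24 h. The late class held 263 genes that were higher and 234 that were lower, of which 258 (2.31%) and 234 (2.1%) were tested at both times. Fading genes numbered 8, of which 5 were higher at 6 h (0.0448%) and 3 lower (0.0269%). A further 777 rises and 717 falls at 24 h, and 15 rises and 5 falls at 6 h, passed at that time alone without passing the test between times, so their time course was not determined. Persistent genes thus made up 82.3% of the 124 rises at 6 h and 9.28% of the 1099 rises at 24 h among genes tested at both times, and 64% of the 25 falls at 6 h and 1.65% of the 968 falls at 24 h. Without replicate 3 of 10 mM at 6 h the persistent genes numbered 73 in place of 118, and without replicate 2 they numbered 77.

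**Figure D1:**
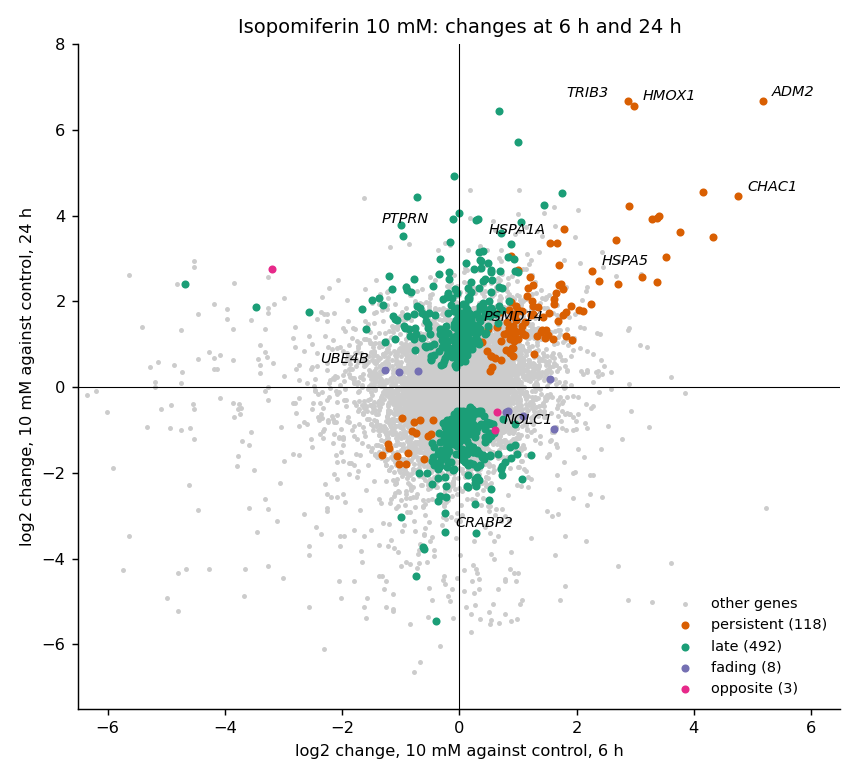
Log2 change at 10 mM against control at 6 h (horizontal axis) and at 24 h (vertical axis) for the 11167 genes tested at both times, 1 point per gene, coloured by time class. Late genes spread along the vertical axis near 0 at 6 h, and persistent genes lie mostly at the upper right.

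The early rises mostly grew or held at 10 mM. Of the 124 genes that rose at 6 h, 115 had a change of the same sign at 24 h and 71 had a larger one, with a median log2 change of 1.23 at 6 h and 1.38 at 24 h. Of the 25 genes that fell at 6 h, 19 had the same sign at 24 h and 15 a larger change, with medians of −0.92 and −1.03. At 3.3 mM the overlap was smaller: 27 of the 56 genes that rose at 6 h also rose at 24 h (48.2% of the rises at 6 h and 10.4% of the 260 at 24 h). None of the 4 genes that fell at 6 h fell at 24 h.

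Genes of the unfolded protein response rose early and stayed high at 10 mM. The list holds 23 genes of ER folding and degradation, of which 21 were tested. Over all genes tested, 1.08% rose at 6 h and 9.91% at 24 h at 10 mM, and 0.489% and 2.29% at 3.3 mM. At 10 mM 14 of the list rose at 6 h and 20 at 24 h, with median log2 changes of 1.62 and 1.74. At 3.3 mM 11 rose at 6 h and 9 at 24 h, with medians of 1.17 and 0.73, and the latter count was 5 without replicate 2 at 24 h. The promoters of its leading chaperone and of HSP90B1, a chaperone of the same compartment, are printed because both hold the composite ER stress element, CCAAT and CCACG spaced by 9 bases (searched on both strands). The sequences are the 250 bases upstream of the gene's start, 5′ to 3′ on the gene's strand, from RefSeq (GRCh38.p14), and capitals mark the element. HSPA5 lies at chr9:125241344-125241593 on the minus strand and HSP90B1 at chr12:103930160-103930409 on the plus strand.
HSPA5: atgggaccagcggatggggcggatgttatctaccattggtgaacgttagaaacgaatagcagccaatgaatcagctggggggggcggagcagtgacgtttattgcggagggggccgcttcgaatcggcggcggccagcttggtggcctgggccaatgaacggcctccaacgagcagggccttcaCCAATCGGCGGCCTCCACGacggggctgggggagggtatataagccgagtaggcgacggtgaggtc
HSP90B1: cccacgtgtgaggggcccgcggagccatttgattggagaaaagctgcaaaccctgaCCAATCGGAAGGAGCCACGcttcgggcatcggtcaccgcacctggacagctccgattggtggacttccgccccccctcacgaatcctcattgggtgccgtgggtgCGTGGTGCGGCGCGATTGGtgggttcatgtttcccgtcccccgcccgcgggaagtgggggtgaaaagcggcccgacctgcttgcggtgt
The element was found in 5 of the 20 promoters of the list that the table holds (25%), in 0.15% of the 9094 promoters of genes tested at 24 h and in 22 of all 27305 promoters (0.08%). In HSPA5 it ran from −66 to −48 relative to the gene's start, and HSP90B1 held 2 copies, at −194 to −176 and, on the opposite strand, at −89 to −71. The second part CCACG also occurs alone, and a match describes the letters of this window, not a bound site.

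HSPA5, the ER chaperone BiP, stood at 173, 187 and 237 CPM (lowest, median and highest) in the 6 control libraries at 6 h, at 844, 821 and 905 CPM in the 3 libraries at 3.3 mM and at 846, 865 and 1079 CPM at 10 mM. After 24 h it stood at 136, 163 and 238 CPM in the controls, 411, 398 and 288 CPM at 3.3 mM and 1338, 905 and 1173 CPM at 10 mM. At 6 h both concentrations gave like levels far above every control library, and at 24 h the 3.3 mM libraries lay between the controls and the 10 mM libraries with no overlap. The log2 change at 10 mM was 2.27 ± 0.14 (SE) at 6 h and 2.71 ± 0.17 (SE) at 24 h (edgeR adjusted p = 2.7e-24 and 3.5e-24). At 3.3 mM it was 2.14 ± 0.14 (SE) at 6 h and 1.09 ± 0.19 (SE) at 24 h, and this fall between times of −1.05 ± 0.24 (SE) passed (edgeR adjusted p = 0.011). The fall did not pass without replicate 3 of 3.3 mM at 6 h (−1.01, edgeR adjusted p = 0.051) or at 24 h (−0.91, edgeR adjusted p = 0.11). At 10 mM the difference between times was 0.45 ± 0.23 (SE) and did not pass (edgeR adjusted p = 0.3).

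HERPUD1, an ER membrane protein that takes part in the degradation of misfolded proteins, fell back between times at 3.3 mM. It stood at 12.7, 33.8 and 42.1 CPM in the controls at 6 h, 184, 158 and 215 CPM at 3.3 mM and 225, 268 and 313 CPM at 10 mM. At 24 h it stood at 20.8, 42.9 and 54.5 CPM in the controls, 49.2, 72.2 and 47.3 CPM at 3.3 mM and 284, 215 and 228 CPM at 10 mM. By 24 h 2 of the 3 libraries at 3.3 mM were back within the range of the controls, while those at 10 mM lay above every control and every 3.3 mM library of that time. The log2 change at 3.3 mM went from 2.59 ± 0.25 (SE) to 0.51 ± 0.34 (SE), a difference of −2.08 ± 0.43 (SE) (edgeR adjusted p = 0.0025). At 10 mM it went from 3.12 ± 0.24 (SE) to 2.56 ± 0.27 (SE). The difference of its step between the times was 1.52 ± 0.42 (SE) and did not pass (edgeR adjusted p = 0.063). HSP90B1 changed by 1.04 at 6 h and 1.30 at 24 h at 10 mM on the log2 scale, and by 0.96 and 0.77 at 3.3 mM. Its 3 libraries at 10 mM and 24 h held 2631, 3192 and 2951 CPM, against 1041, 1132 and 1430.2 CPM in the controls.

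ATF4 targets rose at both times. Of 26 tested, 17 rose at 6 h and 23 at 24 h at 10 mM, against 1.08% and 9.91% of all genes. The medians were 1.35 and 2.22 on the log2 scale. At 3.3 mM 11 rose at 6 h (median 1.00) and 10 at 24 h (median 0.87), against 0.489% and 2.29% of all genes. Of these, 5 passed at both times, 6 at 6 h only, among them ATF3, DDIT4 and PSAT1, and 5 at 24 h only. Of the 6, only DDIT4 also passed the test between times at 3.3 mM. A pass at 1 time alone does not show a difference between the times. Between the times at 10 mM, 6 of the 26 rose further and 1 fell back, against 2.45% and 2.17% of all genes. The promoter of CHAC1 is shown with that of HERPUD1 because both hold the composite site for ATF4 and C/EBP factors, TGATGNAAN, at −210 to −202 and −177 to −169, each on the opposite strand, in capitals. They are the 250 bases before each start, at chr15:40953221-40953470 and chr16:56931892-56932141, both on the plus strand (RefSeq, GRCh38.p14).
CHAC1: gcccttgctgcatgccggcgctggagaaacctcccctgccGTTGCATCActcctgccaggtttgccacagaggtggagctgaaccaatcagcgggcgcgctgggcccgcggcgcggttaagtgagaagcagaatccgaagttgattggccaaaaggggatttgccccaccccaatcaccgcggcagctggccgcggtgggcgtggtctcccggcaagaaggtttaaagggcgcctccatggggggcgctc
HERPUD1: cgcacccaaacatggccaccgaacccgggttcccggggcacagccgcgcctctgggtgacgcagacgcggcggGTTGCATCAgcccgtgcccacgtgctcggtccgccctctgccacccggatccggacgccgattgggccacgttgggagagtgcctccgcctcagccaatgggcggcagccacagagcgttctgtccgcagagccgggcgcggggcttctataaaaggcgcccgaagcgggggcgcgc
TGATGNAAN, searched on both strands, was found in 8 of the 88 persistently higher genes with a promoter in the table (9.09%), in 3 of 205 late higher genes (1.46%), in 1.39% of the promoters of genes tested and in 3.18% of all promoters.

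CHAC1, an enzyme that degrades glutathione, stood at 6.92, 16.5 and 24.1 CPM in the controls at 6 h, 261, 234 and 172 CPM at 3.3 mM and 331, 466 and 459 CPM at 10 mM. After 24 h the levels were 6.31, 15.1 and 27.9 CPM in the controls, 109, 87.4 and 72.5 CPM at 3.3 mM and 352, 346 and 301 CPM at 10 mM. No treated library overlapped the controls at either time. Its log2 change at 10 mM was 4.75 ± 0.27 (SE) at 6 h and 4.45 ± 0.23 (SE) at 24 h. ADM2, which encodes a peptide hormone, had a log2 change of 5.17 ± 0.40 (SE) at 6 h and 6.66 ± 0.35 (SE) at 24 h, the largest early rise of the genes named.

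DDIT3, which encodes the transcription factor CHOP, held 208, 449 and 254 CPM at 10 mM and 6 h and 299, 295 and 252 CPM at 24 h, against medians of 31.4 and 18.2 CPM in the controls. Its log2 change was 3.37 ± 0.22 (SE) and 3.95 ± 0.24 (SE). DDIT4, an inhibitor of the growth kinase complex mTORC1, rose early at both concentrations and faded at the lower one. It stood at 31.9, 45.6 and 71.5 CPM in the controls at 6 h, 464, 275 and 334 CPM at 3.3 mM and 514, 803 and 469 CPM at 10 mM. By 24 h it was at 55.7, 74.3 and 125 CPM in the controls, 115, 162 and 172 CPM at 3.3 mM and 572, 566 and 927 CPM at 10 mM. The 3.3 mM libraries, all above the controls at 6 h, overlapped them at 24 h. Its log2 change at 3.3 mM was 2.78 ± 0.25 (SE) at 6 h and 0.83 ± 0.28 (SE) at 24 h (edgeR adjusted p = 0.087), a difference of −1.95 ± 0.39 (SE) (edgeR adjusted p = 0.0023). At 10 mM it was 3.04 ± 0.24 (SE) at 24 h.

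TRIB3, a pseudokinase that feeds back on ATF4 (chr20:380760-397559), climbed between the times. It stood at 1.93, 3.37 and 9.59 CPM in the controls at 6 h, 18.4, 12.6 and 12.8 CPM at 3.3 mM and 42.4, 33.2 and 29.3 CPM at 10 mM. In the 24 h libraries it stood at 0, 1.101 and 4.34 CPM in the controls, 23.7, 24.9 and 11.03 CPM at 3.3 mM and 168, 245 and 75.6 CPM at 10 mM. Treated libraries lay above all controls at both times, and of these groups the 10 mM libraries at 24 h were the highest and spread most. The log2 change at 10 mM was 2.87 ± 0.49 (SE) at 6 h and 6.68 ± 0.44 (SE) at 24 h, and the difference of 3.83 ± 0.88 (SE) passed (edgeR adjusted p = 0.0016). At 3.3 mM the change did not pass at 6 h (1.59 ± 0.59 (SE), edgeR adjusted p = 0.32) and was 3.78 ± 0.69 (SE) at 24 h.

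Genes of amino acid supply also rose at both times. Of 12 aminoacyl tRNA synthetase genes, which charge tRNAs with amino acids, 7 rose at 6 h and 8 at 24 h at 10 mM. The medians were 0.83 and 1.11, and 1.08% and 9.91% of all genes tested rose. At 3.3 mM none passed at 6 h in edgeR's test, with 2 at an unadjusted p under 0.05 and 1 in DESeq2, and 2 rose at 24 h. The count of 7 fell to 4 without replicate 3 of 10 mM at 6 h. WARS, the tryptophan enzyme, held 315, 198 and 237 CPM at 10 mM and 6 h and 518, 518 and 563 CPM at 24 h, against 83.1, 109.8 and 143 and 83.1, 108 and 134 CPM in the controls of the same times. All its 10 mM libraries were above the controls, and its log2 change of 1.16 grew to 2.32. Of 10 amino acid transporters tested, 6 rose at 6 h and 8 at 24 h at 10 mM (medians 0.96 and 1.66), and the 8 were 5 without replicate 3 of 10 mM at 24 h. SLC3A2, the heavy chain shared by several of these transporters, stood at 328, 226 and 330.0 CPM at 10 mM and 6 h and 1088, 1092 and 1016 CPM at 24 h, against control medians of 80.3 and 85.8 CPM. Its change between the times of 1.91 ± 0.38 (SE) passed (edgeR adjusted p = 1.9e-04).

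**Figure D2:**
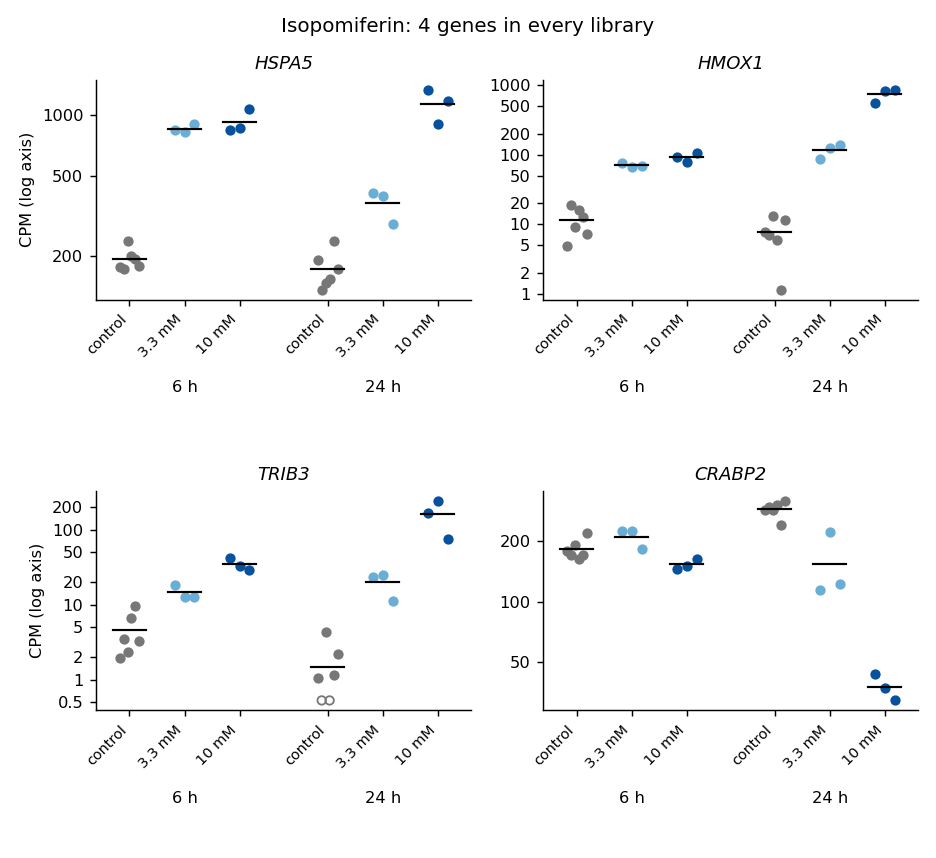
CPM on a log axis of TRIB3, HMOX1, HSPA5 and CRABP2 in each library, by time and concentration; each point is 1 library, and open points at the bottom are libraries at 0 CPM (2 control libraries at 24 h for TRIB3). HSPA5 is already high at 6 h at both concentrations, whereas TRIB3 and HMOX1 climb between the times and CRABP2 falls at 24 h.

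Some NRF2 targets rose at 6 h and more at 24 h. The members with the smallest p at 10 mM and 6 h were SLC7A11, HMOX1 and SLC6A9, and SLC7A11 is also counted among the amino acid transporters above. Which factor, NRF2 or ATF4, raised these members was not tested. Of 20 tested, 4 rose at 6 h and 13 at 24 h at 10 mM, with medians of 0.31 and 1.38, and 7 passed the test between times. At 3.3 mM 3 rose at 6 h and 9 at 24 h (medians 0.53 and 0.87). Over all genes, 1.08% and 9.91% rose at 10 mM, and 0.489% and 2.29% at 3.3 mM. HMOX1, heme oxygenase (chr22:35381096-35394207), rose early and rose again. It stood at 4.83, 10.9 and 19.2 CPM in the controls at 6 h, 76.4, 66.03 and 69.02 CPM at 3.3 mM and 94.6, 78.6 and 108 CPM at 10 mM. At 24 h it stood at 1.15, 7.51 and 13.01 CPM in the controls, 88.1, 124 and 137 CPM at 3.3 mM and 556, 817 and 866 CPM at 10 mM. All treated libraries lay above the controls of their time, and only at 24 h were the 2 concentrations far apart. The log2 change at 10 mM was 2.97 ± 0.32 (SE) at 6 h and 6.56 ± 0.28 (SE) at 24 h, a difference of 3.60 ± 0.52 (SE) (edgeR adjusted p = 4.8e-08).

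FTL, the ferritin light chain that stores iron, did not pass at 6 h at 10 mM (−0.07 ± 0.21 (SE), edgeR adjusted p = 0.94). After 24 h the levels were 392, 491 and 604 CPM in the controls, 1232, 941 and 1362 CPM at 3.3 mM and 1969.8, 2670.0 and 2619 CPM at 10 mM, in an order without overlap. Its log2 change was 2.29 ± 0.19 (SE) at 10 mM and 1.25 ± 0.19 (SE) at 3.3 mM, and FTL has many processed pseudogenes, so its counts are uncertain. PGD, an enzyme of the pentose phosphate pathway, followed it with 0.34 at 6 h (edgeR adjusted p = 0.25) and 1.62 at 24 h. SQSTM1, the autophagy receptor p62, changed by 0.37 at 6 h (edgeR adjusted p = 0.73) and by 2.95 at 24 h. It was among 8 of 17 tested lysosome and autophagy genes that rose at 24 h at 10 mM (median 0.94), against 9.91% of all genes. None of the 16 tested at 6 h passed in edgeR's test, with 2 higher at an unadjusted p under 0.05 and 1 in DESeq2.

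Proteasome subunit genes rose at 24 h and did not pass at 6 h. This list of subunits was added after its values were seen. At 6 h none of the 35 tested passed in edgeR's test at either concentration; 5 were higher at an unadjusted p under 0.05 at 10 mM and 6 at 3.3 mM, and DESeq2 called 1 at each. At 24 h 26 rose at 10 mM and 21 at 3.3 mM, against 9.91% and 2.29% of all genes. Of these subunits 20 rose at both, and the medians were 0.77 and 0.72. Between the times 12 rose at 10 mM and 4 at 3.3 mM, against 2.45% and 0.256% of all genes. The step from 3.3 to 10 mM was passed by no subunit at 24 h in edgeR's test, with 2 at an unadjusted p under 0.05, none in DESeq2 and a median of 0.08. The count at 3.3 mM fell from 21 to 12 without replicate 1 and to 11 without replicate 2.

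PSMC4, an ATPase of the proteasome's regulatory particle, stood at 199, 271 and 342 CPM in the controls at 6 h, 323, 288 and 338 CPM at 3.3 mM and 270.1, 252 and 310.3 CPM at 10 mM. By 24 h it was at 214, 230.1 and 314 CPM in the controls, 649, 637 and 784 CPM at 3.3 mM and 803, 822 and 785 CPM at 10 mM. At 6 h treated and control libraries overlapped, and at 24 h every treated library was above every control. Its log2 change at 24 h was 1.73 ± 0.18 (SE) at 10 mM and 1.50 ± 0.18 (SE) at 3.3 mM, and the step between them was 0.22 ± 0.21 (SE) (edgeR adjusted p = 0.66). PSMD14, the deubiquitinase of the same particle, changed by 1.41 ± 0.14 (SE) and 1.24 ± 0.14 (SE), with a step of 0.16 ± 0.16 (SE) (edgeR adjusted p = 0.69).

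Heat shock genes rose at 24 h at the higher concentration. None of 16 passed at 6 h in edgeR's test or in DESeq2 at either concentration, and 1 was higher at an unadjusted p under 0.05 at each. At 24 h 7 rose and 2 fell at 10 mM (median 0.40) and 1 rose at 3.3 mM. Over all genes 9.91% rose and 8.4% fell at 10 mM, and 2.29% rose at 3.3 mM. Between the times 6 rose at 10 mM and 1 at 3.3 mM, against 2.45% and 0.256% of all genes. The members that fell were FKBP4, a co-chaperone (−0.63), and HSPE1, a mitochondrial chaperonin (−0.83), named here because they went against the rest. The 2 falls were 0 in edgeR's test without replicate 1 of 10 mM at 24 h and 1 without replicate 2 or 3, while the 7 rises stood in each case. DNAJB1, a co-chaperone of the HSP70 family, stood at 67.5, 95.3 and 105 CPM in the controls at 24 h, 91.9, 117 and 92.9 CPM at 3.3 mM and 427, 359 and 398 CPM at 10 mM. Its libraries at 3.3 mM overlapped the controls and those at 10 mM lay far above both. The log2 change was 0.16 ± 0.22 (SE) at 3.3 mM (edgeR adjusted p = 0.81) and 2.105 ± 0.18 (SE) at 10 mM, and the step between them was 1.94 ± 0.23 (SE).

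HSPA1A, an inducible HSP70 gene whose near-identical copy HSPA1B may share some of its reads, stood at 19.5, 34.1 and 37.4 CPM in the controls at 24 h, 83.3, 108 and 131 CPM at 3.3 mM and 316, 524 and 582 CPM at 10 mM. The 3 groups did not overlap, and the log2 change at 10 mM went from 0.32 ± 0.32 (SE) at 6 h (edgeR adjusted p = 0.78) to 3.92 ± 0.21 (SE). HSPA8, the constitutive HSP70, stood at 867, 988 and 1103 CPM in the controls at 24 h, 1207, 1231 and 1156 CPM at 3.3 mM and 2039, 2762 and 2489 CPM at 10 mM. Its change was 1.30 ± 0.12 (SE) at 10 mM and 0.28 ± 0.13 (SE) at 3.3 mM (edgeR adjusted p = 0.26). The HSPA8 promoter (chr11:123062137-123062386, minus strand, RefSeq GRCh38.p14) is printed because it holds 2 copies of a heat shock element, GAA, TTC and GAA with 2 bases between each, at −230 to −218 and, on the opposite strand, at −55 to −43, in capitals.
HSPA8: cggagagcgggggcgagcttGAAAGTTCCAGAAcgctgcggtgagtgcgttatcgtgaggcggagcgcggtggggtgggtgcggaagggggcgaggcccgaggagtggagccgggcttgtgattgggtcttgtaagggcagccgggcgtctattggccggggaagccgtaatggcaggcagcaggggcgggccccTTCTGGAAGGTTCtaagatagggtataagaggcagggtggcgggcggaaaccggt
This element was found on either strand in 2 of 15 promoters of the list (13.33%), in 0.26% of promoters of genes tested and in 0.44% of all. The window of DNAJB1, which rose more than HSPA8, held none.

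**Figure D3:**
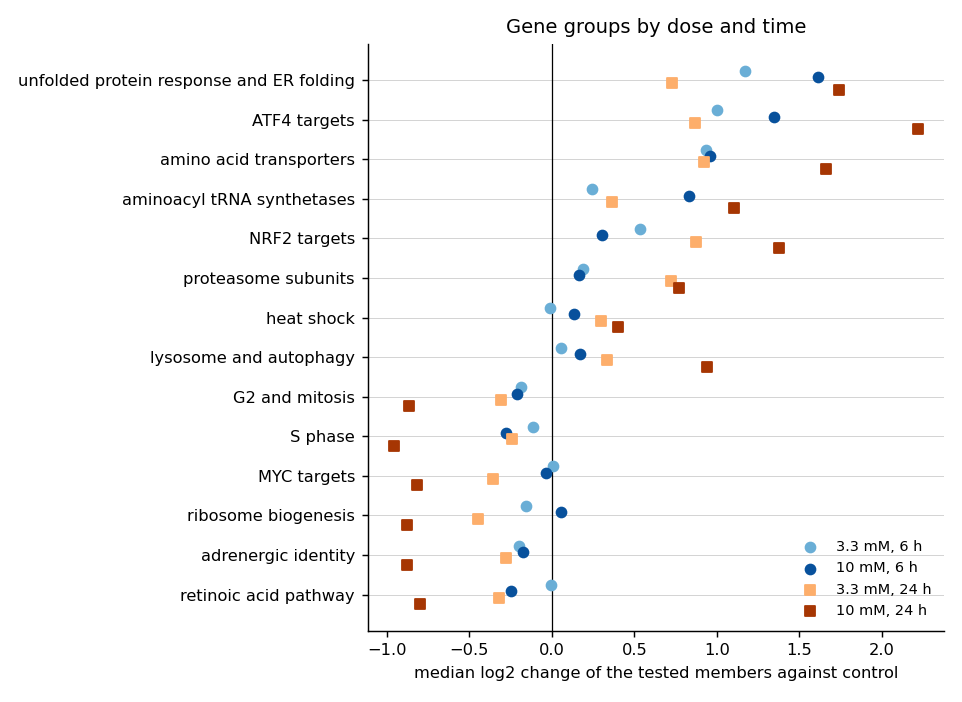
Median log2 change of each gene list against control at 6 h and 24 h, at 3.3 mM and 10 mM. The ER folding and ATF4 lists are at 1.62 and 1.35 at 10 mM and 6 h and at 1.74 and 2.22 at 24 h, and the proteasome list is at 0.19 and 0.16 at 3.3 and 10 mM at 6 h and at 0.72 and 0.77 at 24 h.

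Identity genes of the neuroblastoma cells fell, and most of those that fell passed only at 24 h and at the higher concentration. Of the adrenergic genes, 2 of 21 tested fell at 6 h at 10 mM (HAND1 and PHOX2A, median −0.18), and 14 of 20 fell at 24 h (median −0.88). Over all genes 0.218% and 8.4% fell at 10 mM, and 0.806% at 3.3 mM and 24 h. At 3.3 mM none passed at 6 h in edgeR's test or in DESeq2, with 3 lower at an unadjusted p under 0.05, and 3 fell at 24 h. The 3 were 1 without control replicate 1 or 2, without replicate 1 or 3 of 3.3 mM, without a filter on low counts and with only the compared groups. In bulk libraries fewer cells of a type and less RNA per cell cannot be told apart. HAND1, a transcription factor of sympathetic neuroblasts, stood at 142, 223 and 271 CPM in the controls and 116, 93.01 and 66.5 CPM at 10 mM at 6 h. In the 24 h libraries it stood at 162, 191 and 233 CPM in the controls, 196, 189 and 211 CPM at 3.3 mM and 89.1, 65.8 and 59.4 CPM at 10 mM. The 10 mM libraries lay below all controls at both times, and the 3.3 mM libraries at 24 h lay among the controls. The log2 change at 10 mM was −1.20 ± 0.20 (SE) at 6 h and −1.43 ± 0.22 (SE) at 24 h.

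PHOX2A, a homeobox factor of noradrenergic neurons, fell by 1.03 at 6 h and 1.79 at 24 h at 10 mM on the log2 scale. CHGA, the secretory granule protein chromogranin A, did not pass at 6 h (0.06) and stood at 278, 328 and 345 CPM at 10 mM and 24 h, against 583, 691 and 757 CPM in the controls, a change of −1.104 ± 0.14 (SE). MYCN was high and uneven among libraries. It stood at 607, 794 and 1937 CPM in the controls at 6 h and 627, 269 and 324 CPM at 10 mM, and at 605, 863 and 1299.6 CPM in the controls at 24 h, 931, 1884 and 1099 CPM at 3.3 mM and 283, 233 and 385 CPM at 10 mM. The groups overlapped at 6 h, and at 24 h the 10 mM libraries were below all control and 3.3 mM libraries. Its log2 change at 10 mM was −1.31 ± 0.36 (SE) at 6 h (edgeR adjusted p = 0.039) and −1.59 ± 0.38 (SE) at 24 h (edgeR adjusted p = 0.0011), and 0.54 ± 0.34 (SE) at 3.3 mM and 24 h (edgeR adjusted p = 0.48). The call at 6 h was lost without replicate 2 or replicate 3 of 10 mM (−1.08 and −1.18, edgeR adjusted p = 0.29 and 0.25), and without control replicate 2 or the second control replicate 1 (−1.03 and −1.25, edgeR adjusted p = 0.18 and 0.067). With both times fitted together it was −1.32 and did not pass (edgeR adjusted p = 0.061). TEAD4 and the casein kinase 2 genes CSNK2A1, CSNK2A2 and CSNK2B passed in none of the 4 comparisons with control.

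Growth and division genes fell mostly at 24 h and 10 mM. Smaller falls at 6 h in the deeper libraries of another experiment are given below. Of 26 genes of G2 and mitosis, 19 fell at 24 h (median −0.86), against 8.4% of all genes. None passed at 6 h in edgeR's test, with 6 lower at an unadjusted p under 0.05 and 1 in DESeq2. At 3.3 mM and 24 h none passed in edgeR's test or DESeq2, with 9 lower at an unadjusted p under 0.05 (median −0.31). Of 21 S phase genes 10 fell at 24 h (median −0.96), and of 19 MYC targets 12 fell (median −0.82). Of 21 ribosome biogenesis genes 11 fell (median −0.88), a count that was 7 without replicate 2 of 10 mM at 24 h. At 3.3 mM and 24 h 2 S phase genes and 2 MYC targets fell, against 0.806% of all genes. Each of these counts was as low as 1 with 1 library left out. At 10 mM and 6 h 1 S phase gene fell, and 0 without control replicate 2. CDK1, the kinase that drives mitotic entry, stood at 188, 252 and 284 CPM in the controls at 24 h, 181, 209 and 158 CPM at 3.3 mM and 95.3, 163 and 93.4 CPM at 10 mM. The 10 mM libraries were below all controls, with a log2 change of −1.101 ± 0.19 (SE), and 1 of them lay within the range of the 3.3 mM libraries. NME1, a nucleoside diphosphate kinase and MYC target, stood at 529.9, 613 and 675 CPM in the controls, 359.9, 461 and 373 CPM at 3.3 mM and 235, 288 and 173 CPM at 10 mM. Its groups did not overlap, and its log2 change was −0.59 ± 0.13 (SE) at 3.3 mM and −1.39 ± 0.14 (SE) at 10 mM. Without replicate 1 of 3.3 mM the former was −0.52 and did not pass (edgeR adjusted p = 0.055).

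CRABP2, which carries retinoic acid to its nuclear receptor (chr1:156699606-156705784), was a late fall. It stood at 163, 176 and 221 CPM in the controls at 6 h, 225, 225 and 183 CPM at 3.3 mM and 146, 151 and 163 CPM at 10 mM. At 24 h it stood at 242, 290.4 and 319 CPM in the controls, 115, 223 and 123 CPM at 3.3 mM and 43.8, 37.2 and 32.3 CPM at 10 mM. At 6 h the change was −0.25 ± 0.16 (SE) at 10 mM (edgeR adjusted p = 0.63), and at 24 h the 3 groups lay in order of concentration without overlap. The log2 change at 24 h was −2.93 ± 0.23 (SE) at 10 mM and −0.86 ± 0.18 (SE) at 3.3 mM; without replicate 1 the latter was −0.66 and did not pass (edgeR adjusted p = 0.067). Of the 13 retinoic acid pathway genes tested at 24 h, 5 fell at 10 mM and 1 rose (median −0.80). Over all genes tested 8.4% fell and 9.91% rose, so the 1 rise is no more than the general share. Among the 8 largest falls at 24 h were MAP2K6, a kinase that activates p38 (−4.40), THRA, a thyroid hormone receptor (−3.73), SLC6A2, the noradrenaline transporter (−3.04), and GATA4, a transcription factor (−2.71).

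PTPRN and SYT2 rose at 24 h at both concentrations. PTPRN, a receptor-like protein of dense-core vesicles, stood at 16.1, 38.7 and 57.3 CPM in the controls at 24 h, 288, 314 and 340.2 CPM at 3.3 mM and 497, 627 and 604 CPM at 10 mM. SYT2, a calcium sensor of vesicle release, stood at 1.05, 5.22 and 11.7 CPM in the controls, 72.9, 61.3 and 74.03 CPM at 3.3 mM and 60.2, 78.2 and 50.9 CPM at 10 mM. All treated libraries lay far above the controls, and for SYT2 the concentrations overlapped. The changes at 6 h were −0.10 ± 0.40 (SE) at 10 mM and 1.07 ± 0.34 (SE) at 3.3 mM for PTPRN, and −0.96 ± 1.14 (SE) and 1.01 ± 0.76 (SE) for SYT2, and none of these passed (edgeR adjusted p = 0.95, 0.17, 0.82 and 0.77). The log2 change between the times at 10 mM was 4.02 ± 0.55 (SE) for PTPRN and 4.49 ± 1.16 (SE) for SYT2, and that of SYT2 did not pass with the older quasi-likelihood method (4.48, edgeR adjusted p = 0.089). At 3.3 mM it was 1.96 ± 0.52 (SE) and 2.64 ± 0.93 (SE) and did not pass (edgeR adjusted p = 0.056 and 0.28). The step from 3.3 to 10 mM at 24 h was 0.88 ± 0.36 (SE) and −0.13 ± 0.34 (SE) (edgeR adjusted p = 0.17 and 0.91).

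The 8 fading genes at 10 mM were ARF6, HSD17B7, NEFL, PIK3R1, PRKRA, PSIP1, TOPBP1 and UBE4B, of which ARF6, PIK3R1 and TOPBP1 are named for completeness and not by the rule. The count of 8 was 3 without replicate 3 of 10 mM at 6 h, the second control replicate 1 or the second control replicate 3, and 5 without replicate 1 of 10 mM, control replicate 2 or the second control replicate 2. HSD17B7, an enzyme of cholesterol synthesis, stood at 17.2, 21.98 and 45.4 CPM in the controls and 79.4, 63.5 and 72.02 CPM at 10 mM at 6 h, and at 18.4, 25.3 and 46.3 and 46.1, 24.8 and 31.4 CPM at 24 h. Its libraries were apart at 6 h and overlapped at 24 h. UBE4B, a ubiquitin chain elongation factor, stood at 29.97, 44.4 and 58.2 CPM in the controls at 6 h, 69.8, 73.8 and 92.2 CPM at 3.3 mM and 20.4, 23.1 and 12.7 CPM at 10 mM. The concentrations lay on opposite sides of the controls, and the step of −2.05 ± 0.35 (SE) passed (edgeR adjusted p = 4.5e-04). Its change of −1.27 ± 0.34 (SE) at 10 mM and 6 h was lost when any 1 of the 3 treated libraries was left out (−1.06 to −1.44), and without control replicate 3, the second control replicate 1 or the second control replicate 3 (−1.18, −1.18 and −1.26). It was also lost without a filter on low counts (−1.26) and with only the compared groups (−1.27). At 3.3 mM the fading genes were DDIT4, HERPUD1 and NACA, the last named after its values were seen. Genes that passed in opposite directions at the 2 times were ELAVL4, NOLC1 and STX1A, of which ELAVL4 and STX1A were named after their values were seen. The 3 were 0 in edgeR's test without control replicate 2 of 6 h, and 1 without control replicate 1 or 3 or replicate 1 or 3 of 10 mM at 6 h. NOLC1, a nucleolar phosphoprotein, stood at 503, 636 and 1152 CPM at 10 mM and 6 h, where 1 library was high, and at 292, 263 and 262 CPM at 24 h. Without that library, replicate 3, its change at 6 h was 0.18 (edgeR adjusted p = 0.81) in place of 0.60, and the call was also lost without any of 5 of the 6 control libraries (0.55 to 0.61), with the older quasi-likelihood method, upper quartile scaling, only the compared groups or both times fitted together (0.57 to 0.60).

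The step from 3.3 to 10 mM was passed by few genes at 6 h and by more at 24 h. At 6 h 12 genes were higher at 10 mM (0.105%) and 2 lower (0.0175%), and at 24 h 282 were higher (2.44%) and 195 lower (1.69%). The step itself differed between the times in 58 genes, 31 with a higher signed step at 24 h (0.256%) and 27 with a lower one (0.223%). That count was 35 without replicate 1 of 3.3 mM at 24 h and 50 without replicate 3. The count at 6 h was 4 without replicate 3 of 3.3 mM and 9 without replicate 3 of 10 mM. The count of 477 at 24 h was 244 without replicate 2, 303 without replicate 1 and 357 without the shallow replicate 3 of 3.3 mM, and 310, 308 and 317 without replicate 1, 2 or 3 of 10 mM.

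The genes raised by 10 mM had smaller changes at 3.3 mM at both times. The 124 genes that rose at 6 h had a median log2 change of 1.23 at 10 mM and 0.74 at 3.3 mM, and 8 of them passed the step. The 1143 genes that rose at 24 h had medians of 1.30 and 0.59, and 253 passed the step. For the genes that fell the medians were −0.92 and −0.31 at 6 h (25 genes, 1 past the step) and −1.06 and −0.38 at 24 h (969 genes, 171 past the step). Both concentrations share their controls and these genes were picked at 10 mM, so the medians describe the libraries and carry no test.

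No gene of the 21 ER folding genes passed the step at 6 h in edgeR's test or in DESeq2, with 4 higher at an unadjusted p under 0.05 and a median of 0.14, whereas 9 passed at 24 h with a median of 0.80. The step for HSPA5 was 0.12 ± 0.16 (SE) at 6 h and 1.62 ± 0.21 (SE) at 24 h, and the difference of 1.50 ± 0.26 (SE) passed (edgeR adjusted p = 1.9e-04). Of the ATF4 targets 4 passed the step at 6 h and 17 at 24 h (medians 0.56 and 1.39). Over all genes 0.122% and 4.13% passed it in either direction. DDIT3 was among the former, with a step of 1.09 ± 0.22 (SE) that did not pass without replicate 2 or 3 of 3.3 mM or replicate 2 of 10 mM (0.93, 0.98 and 0.70). It also did not pass in DESeq2 (1.09, adjusted p = 0.076), with the older quasi-likelihood method (1.08, adjusted p = 0.27) or with only the compared groups (1.09, edgeR adjusted p = 0.087). INHBE, a secreted ligand of the TGF-β family, had the largest step at 24 h among characterised genes that passed it with a group mean of at least 30 CPM. Its step was 3.69 ± 0.74 (SE), with 0.947, 2.43 and 4.73 CPM at 3.3 mM and 50.8, 26.7 and 17.8 CPM at 10 mM. CRABP2 had a step of −2.07 ± 0.26 (SE) at 24 h. DCD, a gene of secreted antimicrobial peptide, had the largest step downwards by the rule used for INHBE, but it was erratic, at 89.02, 53.4 and 0 CPM at 3.3 mM, 0.781, 0 and 0 CPM at 10 mM and up to 107 CPM in 1 control library at 6 h.

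**Figure D4:**
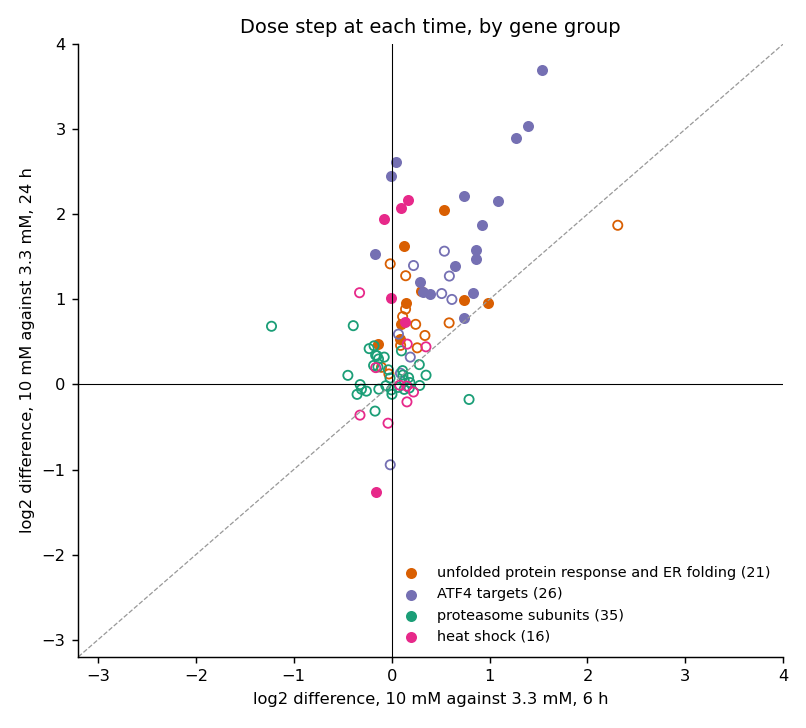
Log2 difference between 10 mM and 3.3 mM at 6 h (horizontal axis) and at 24 h (vertical axis) for the tested members of 4 gene groups, 1 point per gene; filled points passed the step at 24 h, and the dashed diagonal marks equal steps. ATF4 targets and ER folding genes lie mostly above the diagonal, and no proteasome subunit is filled.

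The other treatments of the same plates place these values. Each time holds 30 treatments, of which 28 were not isopomiferin, and all share the controls of their time, so the ranks are descriptions. At 24 h the median log2 change of the proteasome list was 0.77 at 10 mM and 0.72 at 3.3 mM, and among the 28 other treatments it ran from −0.40 to 0.09. At 6 h isopomiferin's 0.16 and 0.19 lay within the range of the others, −0.05 to 0.26. The NRF2 list at 24 h was also highest at the isopomiferin concentrations, 1.38 and 0.87, with the next treatment at 0.85. At 6 h NSC305798 at 5 mM was highest for this list with 0.61, against 0.31 at 10 mM and 0.53 at 3.3 mM. For ER folding 10 mM ranked 1 at 24 h with 1.74, and the highest other treatment, NSC305798 at 5 mM, reached 1.23. At 6 h 10 mM ranked 3 for ER folding with 1.62, and NSC255109 at 2.5 mM reached 1.99. For ATF4 targets 10 mM had 2.22 and narasin at 1 mM 2.18, while 3.3 mM ranked 11. At 6 h NSC305798 at 5 mM had 1.49 and 10 mM 1.35. For tRNA synthetases 10 mM ranked 1 at 6 h (0.83), and narasin at 1 mM was higher at 24 h (1.19, against 1.11). Heat shock genes reached 1.01 at 24 h with NSC255109 at 0.85 mM, against 0.40. Other treatments fell lowest at 24 h for G2 and mitosis (NSC3905 at 3 mM, −0.95), MYC targets (NSC255109 at 2.5 mM, −0.98) and adrenergic genes (podofilox at 0.33 mM, −1.10).

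NSC305798 at 5 mM was compared directly with isopomiferin at 10 mM, a contrast without controls in which the concentrations differ. At 6 h 14 genes were higher with isopomiferin (0.122%) and 8 lower (0.0698%), and at 24 h 276 were higher (2.39%) and 141 lower (1.22%). Of the ER folding genes 11 were higher with isopomiferin at 6 h (median 1.34) and 7 at 24 h (median 0.60). Of the proteasome genes none passed at 6 h in edgeR's test, with 3 higher at an unadjusted p under 0.05 (median 0.17), and 23 of 35 were higher at 24 h (median 1.05). Metallothioneins bind zinc and copper, and of 8 metallothionein and zinc genes 4 were lower with isopomiferin at 6 h and 1 was higher (median −3.12). The count at 24 h, 417 in all, was 234 without replicate 3 of isopomiferin, and 270 and 259 without replicates 2 and 3 of NSC305798.

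**Figure D5:**
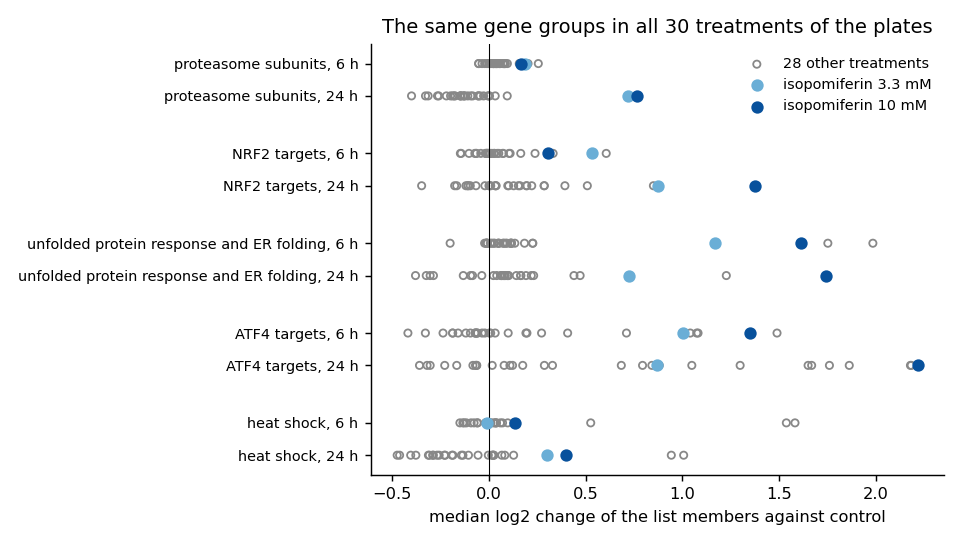
Median log2 change of selected gene lists in each of the 30 treatments at 6 h and 24 h; large points are isopomiferin at 3.3 mM and 10 mM and small points the 28 other treatments. At 24 h both isopomiferin points of the proteasome list lie above the highest other treatment, at 0.09.

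Isopomiferin was also given in the other experiments of the series, which share no control library with these. In the TruSeq experiment, at 10 µM and 6 h, 103 of the 109 genes that rose at 6 h at 10 mM here and could be matched also rose (94.5%, against 16.7% of all matched genes; or 6.02% of the 1711 TruSeq rises), and 12 of 22 that fell also fell (54.5%, against 14.6%; or 0.802% of the 1497 falls there). At 3 h in that experiment 57 of the 109 rose (52.3%, against 3.31%; or 16.8% of the 339 rises there). Persistent higher genes passed there at 6 h in 87 of 89 cases (97.8%; or 5.08% of the rises there), with a median log2 change of 1.26. Of the late higher genes 164 of 242 also passed at 6 h in the deeper TruSeq libraries (67.8%; or 9.59% of the rises there), but with a median log2 change of 0.28, against 1.48 at 24 h in the second experiment. Of 37 proteasome genes 21 rose and 1 fell at 10 µM and 6 h there, with a median of 0.14, and PSMC4 was at −0.02 at 3 h and 0.27 ± 0.04 (SE) at 6 h. Of 20 NRF2 targets 8 rose at 3 h and 18 at 6 h at 10 µM there (medians 0.15 and 0.39), and of 16 heat shock genes 4 and 7 (medians 0.0027 and 0.09). Lists that fell here at 24 h, apart from MYC targets, were in part lower there at 10 µM and 6 h, by small changes. Among all matched genes 14.6% fell and 16.7% rose there. Of 26 G2 and mitosis genes 22 fell (median −0.32), and of 22 S phase genes 11 fell and 1 rose (median −0.12). Of 22 adrenergic genes 11 fell and 4 rose (median −0.16), of 22 ribosome biogenesis genes 7 fell and 1 rose, and of 21 MYC targets 2 fell and 1 rose. SYT2 and PTPRN were at 0.67 and 0.59 at 6 h.

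At 24 h the third experiment gave isopomiferin at 1, 5 and 15, labelled without a unit. At 15, 681 of 1020 matched genes that rose here at 10 mM and 24 h also rose (66.8%, against 12.4%; or 54.1% of the 1258 rises there), and 504 of 837 that fell also fell (60.2%, against 11.4%; or 43.9% of the 1149 falls there). Of the late higher genes 203 of 242 rose (83.9%; or 16.1% of the rises there). At 5, 178 of 237 genes that rose here at 3.3 mM also rose (75.1%, against 5.55%; or 31.7% of the 561 rises there). PSMC4 changed by 0.88, 1.05 and 1.54 at the 3 doses, SYT2 by 3.83, 4.66 and 4.70, and DNAJB1 by 0.13, 0.69 and 1.43. HERPUD1 changed by 1.15, 2.12 and 2.99, and DDIT4 by 1.55, 2.65 and 4.04. At each of these doses both changes were larger than at 3.3 mM and 24 h here, where both genes had faded. CRABP2 changed by −0.68 (not passed), −1.39 and −2.90. Of the fading genes, UBE4B, PRKRA, NEFL and PSIP1 did not pass at 6 h and 10 µM in the TruSeq experiment (0.11, −0.06, 0.04 and −0.10), whereas HSD17B7 rose (1.29). MYCN was at −0.08 there (edgeR adjusted p = 0.26) and at −1.53 at 15 in the third experiment (edgeR adjusted p = 0.002).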

How the data were processed

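Values are whole-number counts per gene symbol as deposited by the authors. STAR and GRCh38 are named without versions in the submitters' processing notes; the read counter and annotation are not given in the sources used here. Groups follow the labels, and every count column was matched to a sample.

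The tools were edgeR 4.0.16, limma 3.58.1 and R 4.3.3. Low genes were removed (filterByExpr, minimum count of 10) and libraries scaled by TMM. The libraries of each time were fitted together, all 31 groups (glmQLFit, glmQLFTest, two-sided), and those of both times for differences between times. DESeq2 1.42.0 was an alternative, as were other scalings, filters and fits, a replicate block and leaving out each library. The other experiments were fitted in their own tables. The threshold was 0.05 after Benjamini-Hochberg adjustment. Changes are log2 of fitted levels, and the SE is the change divided by the root of the F statistic. The procedure was tested on simulated data.

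The groups, the 28 gene lists and the named genes were chosen with earlier results of these data known, and 2 lists, proteasome subunits and cytosolic ribosomal proteins, after their values were seen. Genes named are, for 10 mM at each time, the 8 largest rises and falls without overlap of libraries and with a group mean of at least 30 CPM, 6 per time class, 6 per direction of each dose step, 3 members by p of each list with 3 or more passing, and the 4 markers and 5 reference genes. Promoters were matched by symbol.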

Additional observations from a re-analysis of the deposited data

Results flagged for a closer look

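The change between 6 h and 24 h passed its own test in 560 genes at 10 mM and 41 at 3.3 mM, and the change of the dose step in 58. At 10 mM the log2 difference between times was 3.83 for TRIB3, 3.60 for HMOX1, 1.91 for SLC3A2, 1.16 for WARS, 3.61 for HSPA1A, 2.33 for DNAJB1, 1.09 for HSPA8, 1.15 for PSMD14 and 1.69 for PSMC4. It was 2.37 for FTL, 1.29 for PGD, 2.59 for SQSTM1, 4.02 for PTPRN, 4.49 for SYT2 and 1.67 for UBE4B. Towards lower levels it was −2.67 for CRABP2, −1.16 for CHGA, −1.62 for NME1, −0.85 for CDK1 and −1.59 for NOLC1. At 3.3 mM it was −1.05 for HSPA5, −1.06 for CRABP2, −1.95 for DDIT4, −2.08 for HERPUD1 and −0.80 for CHGA, and 1.60 for HSPA1A, 1.09 for PSMD14 and 1.27 for PSMC4. The step from 3.3 to 10 mM, taken as a signed difference, was higher at 24 h than at 6 h by 2.29 for HMOX1, 1.50 for HSPA5, 1.71 for SLC3A2, 2.01 for HSPA1A, 2.03 for DNAJB1, 1.03 for HSPA8, 1.63 for FTL and 2.03 for UBE4B. For UBE4B this was a step of −2.05 at 6 h that came to −0.03 at 24 h. The signed step differed by −1.61 for CRABP2, −0.94 for NME1 and −1.23 for NOLC1.

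Some of these differences did not pass with 1 library left out. At 10 mM this held for CDK1 without replicate 1 of 6 h or replicate 1 or 3 of 24 h (−0.81, −0.73 and −0.72), and for UBE4B without replicate 3 of 6 h or replicate 1 of 24 h (1.46 and 1.54). At 3.3 mM it held for HSPA5 without replicate 3 of 6 h or of 24 h (−1.01 and −0.91), for CRABP2 without replicate 1 or 3 of 24 h (−0.86 and −0.93), for CHGA without replicate 3 of 6 h or replicate 1 of 24 h (−0.70 and −0.72), and for HSPA1A without any of 11 libraries, lowest without replicate 3 of 6 h (1.41). Of the dose steps it held for CRABP2 without replicate 2 of 3.3 mM at 24 h (−1.19), for NME1 without that library or replicate 3 of 10 mM at 24 h (−0.82 and −0.77), for SLC3A2 without replicate 3 of 3.3 mM at either time or replicate 2 of 10 mM at 6 h (1.17, 1.44 and 1.54), for NOLC1 without any of 5 libraries (−0.81 to −1.24) and for UBE4B without any of 7 (1.83 to 2.09). With the older quasi-likelihood method the step differences of HMOX1 (2.28, adjusted p = 0.084) and SLC3A2 (1.73, adjusted p = 0.079), the SYT2 change at 10 mM (4.48, adjusted p = 0.089) and the HSPA1A change at 3.3 mM (1.62, adjusted p = 0.099) did not pass. In DESeq2 the HMOX1 step difference did not (2.27, adjusted p = 0.051). Without a filter on low counts CDK1 at 10 mM (−0.87), CHGA and CRABP2 at 3.3 mM (−0.81 and −1.07) and the NME1 step difference (−0.94) did not pass. With only the compared groups CHGA and HSPA1A at 3.3 mM (−0.80 and 1.61) and the step differences of NME1 and UBE4B (−0.94 and 2.03) did not pass, at edgeR adjusted p of 0.059 to 0.067.

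Single control libraries stood apart from the rest of their group for 4 of the 62 sets looked at (31 genes in 2 control groups), and chance gives about 1 in 20. At 6 h 1 control held 13.5 CPM of DDIT3 with the nearest at 29.0, another held 555 CPM of CHGA with the nearest at 805, and another 107 CPM of DCD with the nearest at 11.5. At 24 h 1 control held 314 CPM of PSMC4 with the nearest at 245.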

How the results depend on the processing

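No count or named gene reversed under any alternative. Changed by over 1.5 times were the step at 6 h (14; 25 in DESeq2, 4 with the older quasi-likelihood method, 91 without a filter), the change between times at 3.3 mM (41; 25 with the older method, 27 with only the compared groups) and the change of the step (58; 118 in DESeq2). So were the difference from NSC305798 at 6 h (22; 54 without a filter), the fading genes (8; 5 with the older method) and the genes of opposite direction (3; 1 in DESeq2, with the older method and with upper quartile scaling, 14 without a filter, 5 with only the compared groups). The cause was not tested.

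With 1 library left out the counts ran as follows: 90 to 136 for 10 mM at 6 h, 43 to 68 for 3.3 mM at 6 h, 4 to 19 for the step at 6 h, 1516 to 2018 for 10 mM at 24 h, 184 to 340 for 3.3 mM at 24 h and 244 to 357 for the step at 24 h. They were 392 to 552 and 22 to 45 for the change between times at 10 and 3.3 mM, 35 to 60 for the change of the step, and 19 to 23 and 234 to 373 against NSC305798 at 6 and 24 h. Persistent genes numbered 73 to 117, fading 3 to 10, late 343 to 489 and opposite 0 to 4.

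Libraries with the same replicate number did not deviate together (correlations of −0.11 to 0.11 between isopomiferin groups and with their controls, and of −0.15 to 0.16 between the controls of both times), so the numbers were not taken as pairs. With the replicate block the counts were 147, 59 and 14 at 6 h and 2102, 351 and 470 at 24 h for 10 mM, 3.3 mM and the step, and 554, 40 and 66 for the changes between times. Among printed genes the block ended the call of the PHOX2A step at 24 h (−0.98, edgeR adjusted p = 0.054), which was also lost with RLE size factors (−0.97), without a filter, with only the compared groups (−1.01) and without replicate 1 or 2 of 3.3 mM or 2 or 3 of 10 mM (−0.68 to −1.07).

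Depth limits the low genes: the shallowest library held 608491 counts, and a change of a gene with few counts in such a library was not detectable.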

Other observations

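Further lists are given for 10 mM and 24 h, where 9.91% of all genes tested rose and 8.4% fell. Of 17 p53 targets 4 rose and 1 fell (median 0.56), 2 and 1 with a minimum count of 30, with CDKN1A, an inhibitor of cyclin-dependent kinases, at 2.99 ± 0.31 (SE) and GADD45A, a DNA damage gene, at 1.31 ± 0.20 (SE). In the immediate early list 8 of 20 genes rose (median 0.67), with FOSL1 and JUN, subunits of AP-1, at 4.24 ± 0.30 (SE) and 1.42 ± 0.24 (SE). Genes of hypoxia and glycolysis were split, 5 of 20 higher and 3 lower (median 0.27): VEGFA, an angiogenic growth factor, had passed at 6 h at 1.74 ± 0.20 (SE) and stood at 2.41 ± 0.22 (SE), whereas ENO1, a glycolytic enzyme, was at −0.79 ± 0.16 (SE). TUBA4A, an α-tubulin, was at 5.13 ± 0.80 (SE) at 10 mM and 4.34 ± 0.93 (SE) at 3.3 mM while TUBB3 was at −0.95 ± 0.15 (SE). Autophagy genes MAP1LC3B and GABARAPL1 were at 2.70 ± 0.24 (SE) and 4.07 ± 0.53 (SE).

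Of 77 cytosolic ribosomal protein genes, 2 rose and 3 fell at 10 mM and 24 h (median −0.07). With only the compared groups these were 3 and 6, without replicate 1 of 10 mM 1 and 2, and without replicate 3 0 and 3, in edgeR's test. Of 22 cholesterol synthesis genes 3 rose at 24 h (median 0.29), with CYP51A1, a sterol demethylase, at 1.46 ± 0.30 (SE). Metallothionein and zinc genes did not pass at 24 h (0 of 8 in edgeR and in DESeq2, 1 at an unadjusted p under 0.05).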
